A study of Sus scrofa with 6 samples.

Results

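The erythropoietin receptor gene EPOR and the genes that act with it were followed in immature Sertoli cells of the pig with and without melatonin. The set was listed by name as EPOR, its kinase JAK2, the transcription factors STAT3, STAT5A and STAT5B, and the feedback and target genes SOCS2, SOCS3, CISH and PIM1. Of the 9 listed genes, 8 had a row among the 20731 genes of the deposited table, and SOCS2 was not analysed here. The members were chosen by name around EPOR, whose FPKM values in MT and Control were already known to lie apart, so the differences between MT and Control within the set are a description, with no test.

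Sertoli cells line the seminiferous tubules of the testis and support the developing germ cells. The 3 MT libraries came from cells treated with melatonin (MT), the pineal hormone of darkness, at 10 nM for 36 h. For the 3 Control libraries the labels give no solvent, dose or time, so it is not known whether these were matched. The labels give neither the age nor the breed of the animals, and do not state if each replicate was its own culture or animal. The p-values set the difference between the groups against the spread of the libraries within a group. That spread may be technical variation only, so the p-values may not speak to other cultures or animals.

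EPOR is a cytokine receptor with no kinase of its own. When erythropoietin, encoded by EPO, binds a pair of receptor chains, the JAK2 molecules attached to them become active and phosphorylate the receptor and STAT5, which moves to the nucleus and switches on genes such as CISH, SOCS2 and PIM1. CISH and the SOCS proteins then dampen the signal, which is why their transcripts are often read as a mark of STAT activity. The receptor is best known from red cell precursors, and STAT3 is shared with receptors of the interleukin 6 family.

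Values are FPKM, fragments per kilobase of gene length for a fixed library size, a scale on which levels can be compared between genes. Low FPKM values move in steps of 1 read, which gave totals of 20484755 to 21500665 reads in MT and 19579279 to 20961380 in Control, and the read number behind each value. Control 3 stood apart: its score on the main principal component, with 68.2% of the variance, was 40.4, against -10.4 to 7.5 for the MT libraries and -22 and -21.7 for the other Control libraries. Results that rest on it are therefore given with and without it. Of the markers of Sertoli cells, WT1 (10.2 to 12.8 FPKM in MT and 10.0 to 11.0 in Control) and AMH (11.6 to 12.7 in MT and 11.3 to 15.6 in Control) were present and SOX9 was low (1.61 to 1.81 in MT and 1.81 to 2.4 in Control). INHA, DHH, KITLG and DMRT1 were at or below 0.0978 FPKM in every library, and GATA4, FSHR and CLDN11 were not analysed here.

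EPOR (ENSSSCG00000013618, chromosome 2, 70063601 to 70068821 in the RefSeq annotation of Sscrofa11.1) had higher values in every MT library than in any Control library. It stood at 17.7, 15.3 and 15.9 FPKM in MT 1, MT 2 and MT 3, and at 8.93, 6.66 and 10.4 FPKM in Control 1, Control 2 and Control 3. The lowest MT value lay above the highest Control value, and Control 3 was the Control library closest to MT. The group means were 16.3 ± 1.26 FPKM in MT and 8.68 ± 1.91 FPKM in Control (SD, n = 3 each), a ratio of 1.88, and the log2 difference, MT minus Control on log2(FPKM + 1), was 0.86 (SE 0.17).

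These values rested on 752, 620 and 648 reads in the MT libraries and 345, 263 and 432 reads in the Control libraries. The exact Poisson 95% interval of the lowest MT value was 14.2 to 16.6 FPKM and that of the highest Control value 9.48 to 11.5 FPKM, intervals that cover counting error only. The log2 difference was 0.99 (SE 0.12) without Control 3. EPOR was the only one of the 8 measured genes whose groups did not overlap. Of all 10950 tested genes 11.2% had groups that did not overlap, and 6.24% had every MT value above every Control value. The log2 difference of EPOR was the 27th highest of the 10950. EPOR was chosen with this contrast known, which favours such a rank, so the rank is a description only.

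Of all 10950 tested genes 0 (0.0%) had a limma adjusted p under 0.05, and 517 an unadjusted p under 0.05. With limma voom on the recovered reads these numbers were 0 and 495. Without Control 3, 1194 genes (10.9%) passed, of which 469 (4.28% of all tested) were higher and 725 (6.62%) lower in MT. These shares are the background for the pathway genes. The pathway lists too were chosen with earlier results of these data known, so their comparison with these shares is a description. EPOR and the rest of the set are not read against these shares, because that contrast was in view when the set was made.

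**Figure D1:**
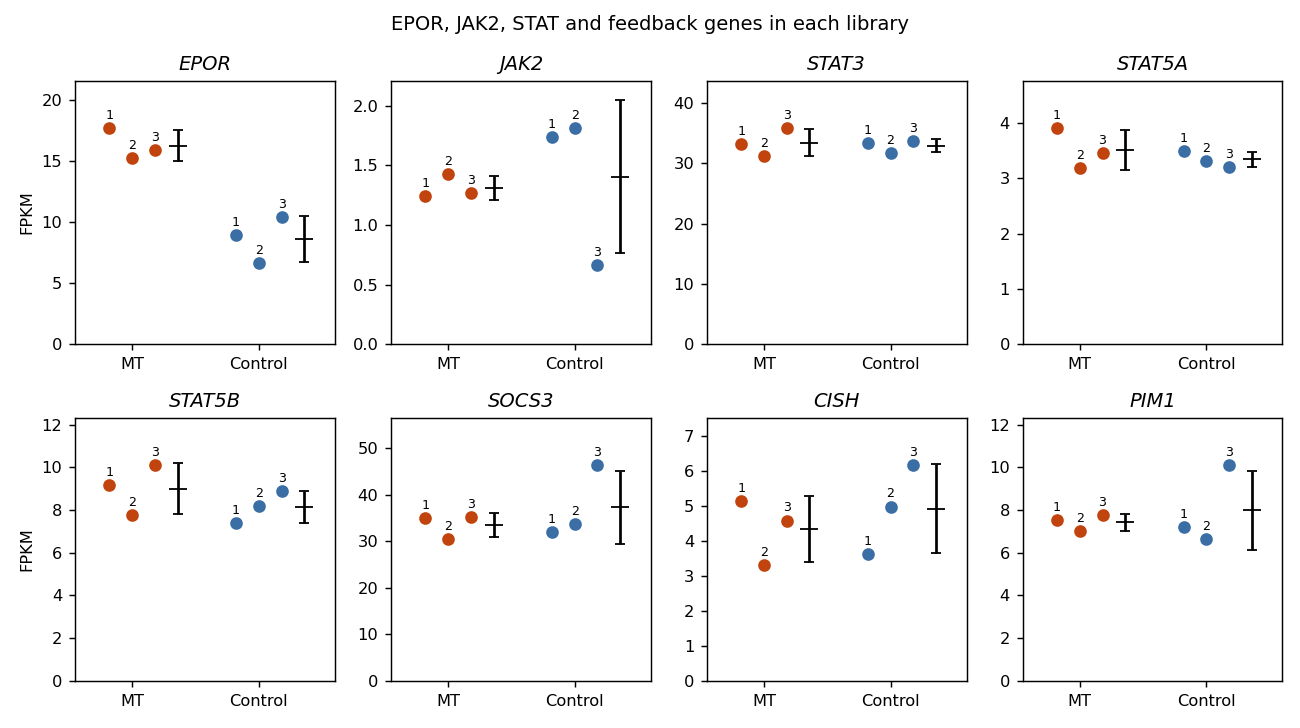
FPKM of the 8 measured genes in each library, MT left of Control, with the y axis of each panel starting at 0. Points are libraries numbered by replicate, and the bar beside them is the mean with its SD (n = 3). In EPOR the MT points (15.3 to 17.7) lie above the Control points (6.66 to 10.4), while the groups overlap in the other 7 genes and Control 3 is the highest point of SOCS3, CISH and PIM1 and the lowest of JAK2.

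The ligand was close to the limit of detection. EPO had 2, 0 and 8 reads in MT 1, MT 2 and MT 3, and 2, 5 and 2 reads in Control 1, Control 2 and Control 3. The highest of these values was 0.306 FPKM in MT 3, and the 0 in MT 2 allows up to 0.116 FPKM, the level of 3 reads there. EPO was not tested. CSF2RB, the shared beta chain that in mouse cells has been described as a partner of EPOR, was at or below 0.0393 FPKM in every library, and EPHB4, a receptor tyrosine kinase that also binds erythropoietin in human cells, stood at 17.0 ± 1.33 FPKM in MT and 15.9 ± 4.48 in Control (SD, n = 3 each). The melatonin receptor genes MTNR1A and MTNR1B were not analysed here.

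JAK2 (ENSSSCG00000005215, chromosome 1, 216849744 to 217002310), the kinase that EPOR needs, was the lowest of the 8 genes in all 6 libraries. It stood at 1.24, 1.43 and 1.27 FPKM in MT 1, MT 2 and MT 3, and at 1.74, 1.81 and 0.665 FPKM in Control 1, Control 2 and Control 3. The MT values lay between Control 3 and the other Control libraries. Over 6 libraries the log2 difference was -0.02 (SE 0.21), and without Control 3 it was -0.27 (SE 0.10), with the MT values below both remaining Control values.

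STAT3 (ENSSSCG00000017403, chromosome 12, 20407316 to 20471091), which carries signals of the interleukin 6 family, had the steadiest values of the set. It stood at 33.2, 31.3 and 35.8 FPKM in MT and at 33.4, 31.7 and 33.8 FPKM in Control replicates 1 to 3. The group ranges lay over each other, with a log2 difference of 0.02 (SE 0.10).

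STAT5B (ENSSSCG00000017406, chromosome 12, 20498103 to 20574365), one of the factors that act directly behind EPOR, stood at 9.17, 7.75 and 10.1 FPKM in MT and at 7.39, 8.20 and 8.88 FPKM in Control replicates 1 to 3. Its close relative STAT5A (ENSSSCG00000017402, chromosome 12, 20474221 to 20498785) stood at 3.90, 3.18 and 3.46 FPKM in MT and at 3.49, 3.32 and 3.21 FPKM in Control. Both overlapped between the groups, with log2 differences of 0.12 (SE 0.13) for STAT5B and 0.05 (SE 0.11) for STAT5A. STAT5B exceeded STAT5A in every library, by a ratio of 2.35 to 2.91 in MT and 2.12 to 2.76 in Control.

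The pair is hard to separate by sequencing. STAT3, STAT5A and STAT5B lie side by side, with 3129 bases between STAT3 and STAT5A and 683 bases shared by STAT5A and STAT5B in the annotation, and the proteins of the STAT5 pair are nearly alike. The strand setting of the counting is not given in the sources used here, so how reads of the overlap and of similar stretches were assigned is unknown, and the split between STAT5A and STAT5B is uncertain.

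SOCS3 (ENSSSCG00000036956, chromosome 12, 3643832 to 3647015), which binds receptors and JAK kinases and stops the signal, was the highest of the set beside STAT3. It stood at 34.9, 30.4 and 35.1 FPKM in MT and at 32.0, 33.6 and 46.3 FPKM in Control replicates 1 to 3. Control 3 lay above all other libraries, and the rest overlapped. The log2 difference was -0.14 (SE 0.16), and 0.02 (SE 0.08) without Control 3.

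CISH (ENSSSCG00000040581, chromosome 13, 33086280 to 33090540), a target of STAT5 that competes with it for the receptor, stood at 5.15, 3.3 and 4.58 FPKM in MT and at 3.61, 4.98 and 6.16 FPKM in Control replicates 1 to 3. It rested on 152 to 249 reads in MT and 159 to 290 in Control. The groups overlapped widely, with a log2 difference of -0.14 (SE 0.21), and 0.01 (SE 0.18) without Control 3.

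PIM1 (ENSSSCG00000001573, chromosome 7, 32788246 to 32793882), a serine/threonine kinase made in response to STAT5 and STAT3, stood at 7.53, 7.0 and 7.78 FPKM in MT and at 7.22, 6.63 and 10.1 FPKM in Control replicates 1 to 3. Its MT values lay inside the Control range. The log2 difference was -0.07 (SE 0.16), and 0.09 (SE 0.08) without Control 3. The groups overlapped in all 3 feedback and target genes. In this fit 0 of all 10950 tested genes passed, so differences larger than these SEs could also go undetected with 3 libraries a group.

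Dividing EPOR by another gene of the same library removes any scaling of the whole library. EPOR stood at 1.93, 1.98 and 1.58 times STAT5B in the MT libraries and at 1.21, 0.811 and 1.18 times STAT5B in the Control libraries. Relative to PIM1 it stood at 2.36, 2.19 and 2.04 in MT and at 1.24, 1.0 and 1.04 in Control, and relative to CISH at 3.44, 4.65 and 3.46 in MT and at 2.47, 1.34 and 1.70 in Control. Since EPOR was chosen for groups that lie apart, and the denominators overlapped between the groups, these ratios are a description and no separate evidence. The ratio of EPOR to JAK2 was 14.4, 10.7 and 12.5 in MT and 5.12, 3.68 and 15.7 in Control, where Control 3 exceeded every MT library.

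**Figure D2:**
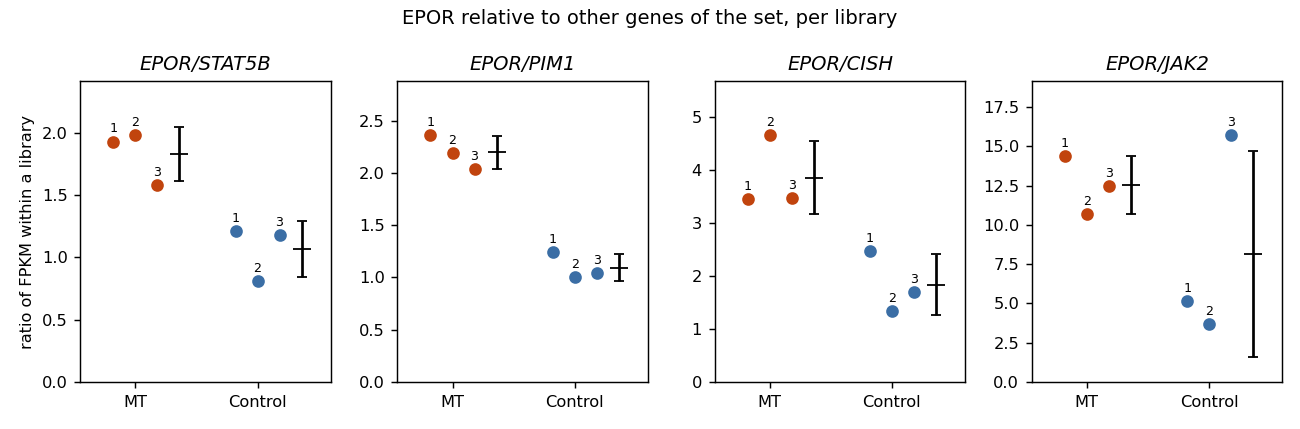
FPKM of EPOR divided by that of STAT5B, PIM1, CISH and JAK2 in the same library, MT left of Control, with axes starting at 0. Points are libraries numbered by replicate, and bars are means with SD (n = 3). The groups lie apart for STAT5B, PIM1 and CISH, while for JAK2 the ratio of Control 3 (15.7) is above the MT libraries (10.7 to 14.4).

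The order of levels was SOCS3 (mean 35.4 FPKM over the 6 libraries), STAT3 (33.2), EPOR (12.5), STAT5B (8.58), PIM1 (7.71), CISH (4.63), STAT5A (3.43) and JAK2 (1.36). SOCS3 exceeded STAT3 in 3 of 6 libraries, so these neighbours did not differ beyond their spread. EPOR exceeded STAT5B in 5 of 6 libraries, the exception being Control 2, and STAT5B exceeded PIM1 in 5 of 6, the exception being Control 3. The other neighbours in the order kept it in all 6 libraries. Among the 10950 tested genes SOCS3 and STAT3 lay at the 87.3 and 86.3 percentiles of mean level, EPOR at 64.4 and JAK2 at 4.6.

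The departure of Control 3 differed in sign among the members. Against the mean of Control 1 and Control 2 on log2(FPKM + 1) it was higher by 0.39 in EPOR, 0.49 in SOCS3, 0.45 in CISH and 0.49 in PIM1, whose gene lengths behind the FPKM were 1973, 2528, 2247 and 2886 bases. JAK2, with 11335 bases the longest, had a deviation of -0.74. STAT3, STAT5A and STAT5B, with 8161, 4246 and 5125 bases, had deviations of 0.05, -0.06 and 0.17.

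Over the 87 tested genes of the pathway lists the Pearson correlation of this deviation with log2 length was -0.56, and over all 10950 tested genes it was -0.09. The Spearman correlation with length was -0.58 over the 87 genes and -0.2 over all tested genes. These correlations are across genes of the same 3 libraries, and genes are not independent replicates. Of the 33 pathway genes of at least 5000 bases 25 were lower in Control 3, with a median deviation of -0.33, and of the 54 shorter ones 40 were higher, with a median of 0.34. This split by length was not made over all tested genes. The part of gene length in the members' differences was not tested.

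**Figure D3:**
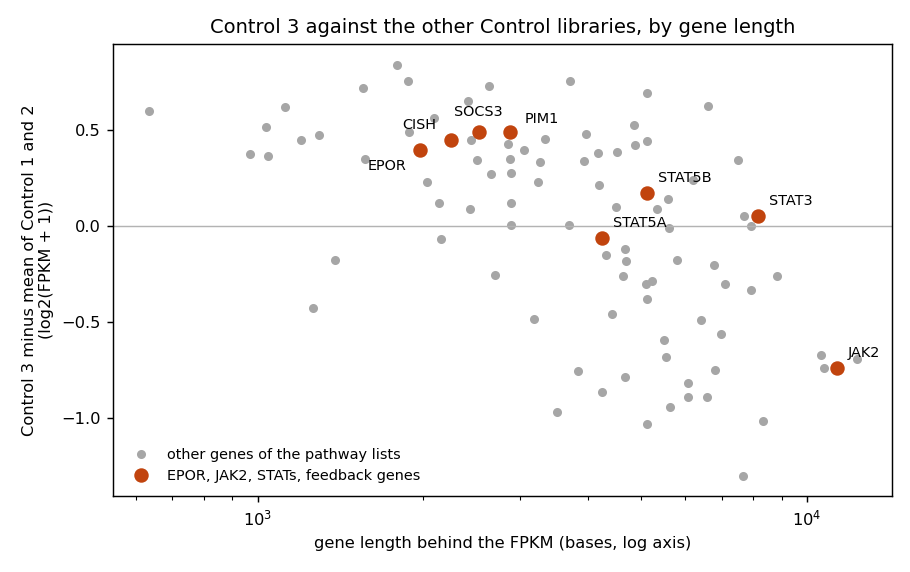
Deviation of Control 3 from the mean of Control 1 and Control 2, in log2(FPKM + 1), against the gene length behind the FPKM on a log axis. Orange points are the 8 measured members and grey points the 87 other tested genes of the pathway lists. EPOR, CISH, SOCS3 and PIM1 lie between 0.39 and 0.49 at 1973 to 2886 bases, and JAK2 lies at -0.74.

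Markers of erythroid and endothelial cells, in which EPOR is known to act, were low. The 5 erythroid markers with a row, among them GATA1 and ALAS2, summed to 0.0807 to 0.411 FPKM in MT and 0.152 to 0.437 in Control, and the 3 endothelial markers with a row to 0.493 to 0.631 in MT and 0.503 to 0.674 in Control. The 6 macrophage markers with a row summed to 13.5 to 14.7 FPKM in MT and 10.7 to 13.4 in Control, groups that did not overlap. Of these, CD68 did not overlap, at 4.50 to 5.30 FPKM in MT and 3.18 to 4.14 in Control. CD14, the most abundant, overlapped at 7.08 to 7.94 FPKM in MT and 6.21 to 8.30 in Control, as did TYROBP at 0.98 to 2.4 in MT and 0.929 to 1.81 in Control and AIF1 at 0.0964 to 0.5 in MT and 0.198 to 0.705 in Control, while CSF1R was at or below 0.0522 and CD163 at or below 0.00639 in every library. The peritubular myoid markers summed to 161.7 to 194.2 FPKM in MT and 160.3 to 264.8 in Control, nearly all from TAGLN. DES stood at 5.81 to 9.43 FPKM in MT and 5.55 to 6.62 in Control, and CNN1 at 0.83 to 0.886 in MT and 0.883 to 1.07 in Control. ACTA2 was at or below 0.208 and MYH11 at or below 0.0406 in every library. The Leydig cell and germ cell markers summed to at most 4.87 and 1.35. The part of these markers in the EPOR difference was not tested, and in such bulk samples fewer cells of a type and less RNA per cell cannot be told apart.

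Other genes of cytokine signalling were taken from lists by role, 128 genes in all, of which 113 had a row and 87 were tested. In limma 0 of the 87 passed over all genes tested, 6 had an unadjusted p under 0.05, 47 were higher and 40 lower in MT. Of all 10950 tested genes 517 had an unadjusted p under 0.05 in limma, 6128 were higher and 4822 lower. The median log2 difference of the 87 was 0.01, against 0.02 over all tested genes. All 87 lay between -0.98 and 0.39. The MT values lay above all Control values in 2 genes of the 87 and below them in 10, against 6.24% and 4.99% of all tested genes. Without Control 3, 6 of the 87 (6.90%) passed, against 10.9% of all tested genes, 2 of them higher and 4 lower in MT.

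Among the 8 tested ligands 0 passed over 6 libraries, and 4 were higher and 4 lower in MT. IL11, a cytokine that acts through IL6ST, was the most abundant at 39.7 ± 5.64 FPKM in MT and 41.5 ± 10.4 in Control. LIF, which signals to STAT3, stood at 13.9 ± 2.33 FPKM in MT and 20.6 ± 4.4 in Control (log2 difference -0.53, SE 0.19, adjusted p 0.96 in limma). IL6 stood at 7.06 ± 1.46 FPKM in MT and 11.3 ± 2.23 in Control (log2 difference -0.61, SE 0.19, adjusted p 0.84 in limma), with every MT value below every Control value, and it fell without Control 3 (-0.75, adjusted p 0.037 in limma). IL7 stood at 6.05 ± 0.505 FPKM in MT and 5.99 ± 1.14 in Control. CTF1, a relative of LIF, stood at 2.93 ± 0.348 FPKM in MT and 2.06 ± 0.825 in Control (SD, all n = 3 over 6 libraries). Its log2 difference was 0.39 (SE 0.20) over 6 libraries, where it did not pass. It rose without Control 3 (0.60, adjusted p 0.037 in limma), which deviated from the mean of the other Control libraries by 0.62.

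Among the 14 tested receptors 0 passed and the median was 0.02. IL4R stood at 29.4 ± 2.17 FPKM in MT and 32.4 ± 6.18 in Control, OSMR, the oncostatin M receptor, at 21.9 ± 1.33 in MT and 20.0 ± 4.68 in Control, IFNGR2 at 20.9 ± 2.88 in MT and 24.8 ± 5.20 in Control, and IL13RA1 at 20.6 ± 1.39 in MT and 18.8 ± 6.10 in Control (SD, n = 3 each). IL6ST, the signalling chain shared by the interleukin 6 family, stood at 7.27 to 9.63 FPKM in MT and at 4.41 to 12.6 in Control. Its log2 difference was -0.08 over 6 libraries and it fell without Control 3 (-0.52, adjusted p 0.040 in limma), and Control 3 deviated from the mean of the other Control libraries by -1.30.

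Of the other kinases of the family TYK2 and JAK1 were far more abundant than JAK2 (1.36 FPKM over the 6 libraries), while JAK3 averaged 1.19 FPKM. TYK2 stood at 43.5 ± 3.20 FPKM in MT and 45.6 ± 10.3 in Control, and JAK1 at 32.7 ± 1.06 in MT and 29.5 ± 3.54 in Control. Of the other STAT factors STAT6, which acts behind IL4R, stood at 37.9 ± 3.13 FPKM in MT and 37.1 ± 6.02 in Control (SD, n = 3 each). Of the 6 tested genes of this group 0 passed with or without Control 3.

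The 14 tested genes listed as brakes of the pathway had a median of 0.02, and 0 passed with or without Control 3. PTPN11, the phosphatase SHP2, stood at 49.5 ± 2.22 FPKM in MT and 50.6 ± 10.8 in Control, PIAS4 at 15.4 ± 1.25 in MT and 15.4 ± 1.57 in Control, and PTPN6, the phosphatase SHP1 that switches off EPOR signalling in red cell precursors, at 9.06 ± 1.80 in MT and 9.71 ± 1.90 in Control. PIAS3, which inhibits STAT3, stood at 14.8 ± 1.12 FPKM in MT and 12.3 ± 0.393 in Control (SD, n = 3 each), with every MT value above every Control value (log2 difference 0.25, SE 0.10).

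Of 12 tested carriers of the signal from EPOR to the RAS and PI3 kinase routes 0 passed with or without Control 3. The adaptors GRB2, SHC1 and CRKL stood at 32.6 ± 0.629, 32.0 ± 1.55 and 23.7 ± 1.02 FPKM in MT and at 33.3 ± 1.97, 29.7 ± 4.28 and 25.4 ± 1.06 FPKM in Control. All are means with SD (n = 3 each).

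The 19 tested targets of STAT3 and STAT5 had a median of -0.12, with 6 higher and 13 lower in MT and 0 past the test. Of all 10950 tested genes 6128 were higher and 4822 lower in MT. Without Control 3 the median of the targets was 0.02, and 1 target rose and 2 fell (15.8% of the 19, against 10.9% of all tested genes). In 6 of the 19 every MT value lay below every Control value, against 4.99% of all tested genes. These were IER3, MYC, CEBPB, JUNB, CEBPD and CCND1, of which MYC and CCND1 are named because their values did not overlap. Many of these genes also answer to growth factors and NF-kB. IER3 stood at 62.0 ± 9.31 FPKM in MT and 123.4 ± 22.8 in Control (log2 difference -0.98, SE 0.17, adjusted p 0.31 in limma) and fell without Control 3 (-1.04, adjusted p 0.025 in limma).

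CEBPD stood at 202.5 ± 13.0 FPKM in MT and 252.0 ± 49.9 in Control, CEBPB at 102.2 ± 2.55 in MT and 149.8 ± 49.3 in Control, JUNB at 81.7 ± 2.63 in MT and 105.3 ± 16.2 in Control, and ID1 at 144.2 ± 12.2 in MT and 165.2 ± 51.1 in Control (SD, n = 3 each). In these 4 genes Control 3 lay 0.36 to 0.75 above the other Control libraries on the log2 scale, and none passed without it. TFRC, the transferrin receptor, stood at 44.0 to 53.0 FPKM in MT and at 44.8 to 91.0 in Control. Its log2 difference was -0.55 (SE 0.26) over 6 libraries, where it did not pass. It fell without Control 3 (-0.86, adjusted p 0.015 in limma), which deviated from the mean of the other Control libraries by -0.94. KLF4, a transcription factor, stood at 6.40 ± 0.391 FPKM in MT and 5.19 ± 1.02 in Control (SD, n = 3 each). Its log2 difference was 0.27 (SE 0.14) over 6 libraries, where it did not pass. It rose without Control 3 (0.40, adjusted p 0.037 in limma), which deviated from the mean of the other Control libraries by 0.39.

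The 15 tested targets of interferon signalling had a median of -0.05, and 0 passed with or without Control 3. TAP1 stood at 33.9 ± 1.38 FPKM in MT and 36.4 ± 4.57 in Control, IRF1 at 27.7 ± 1.46 in MT and 35.5 ± 6.82 in Control, PSMB8 at 24.1 ± 2.12 in MT and 26.1 ± 4.02 in Control, and PSMB9 at 24.0 ± 1.43 in MT and 28.2 ± 6.90 in Control (SD, n = 3 each). IRF1, itself a transcription factor, had no overlap between the groups, and the other 3 overlapped.

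**Figure D4:**
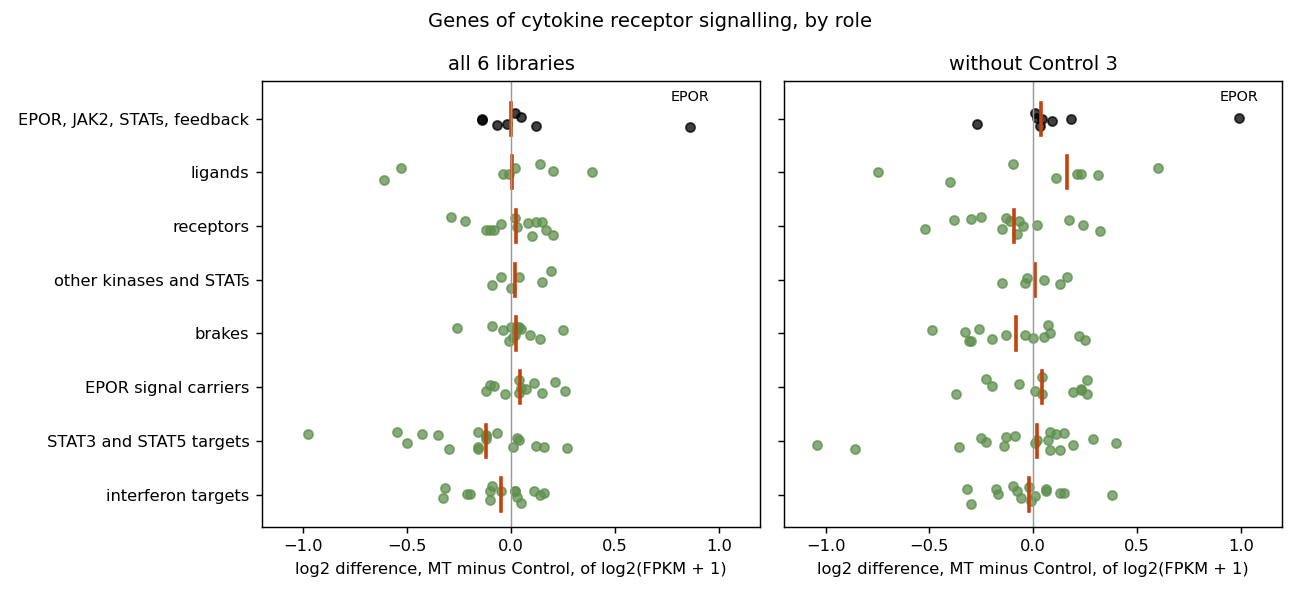
Log2 difference, MT minus Control on log2(FPKM + 1), of the 8 measured members (black) and of the tested genes of each pathway list (green), with the median of each row in orange. The left panel uses all 6 libraries and the right panel leaves out Control 3. EPOR, chosen with this contrast known, lies at 0.86 in the left panel and 0.99 in the right panel.

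The genes whose pattern over the 6 libraries was most like that of EPOR were RIMS3, PRDM4, CD83, NRBP1 and ATXN10, by Pearson r of log2(FPKM + 1), with r of 0.996, 0.991, 0.989, 0.989 and 0.988. The 6 points share the 2 groups and the libraries, so r is a description only. RIMS3, a protein of the presynaptic active zone in neurons, stood at 3.11, 2.92 and 2.86 FPKM in MT and at 1.37, 0.970 and 1.72 FPKM in Control replicates 1 to 3. Like EPOR it was lowest in Control 2, and its ratio of means was 2.19. The other 4 had ratios of 1.10 to 1.30. Genes picked for their likeness to EPOR share its parting of the groups by that choice, so nothing is read from it. The other members of the set had r between -0.339 for JAK2 and 0.506 for STAT5B.

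**Figure D5:**
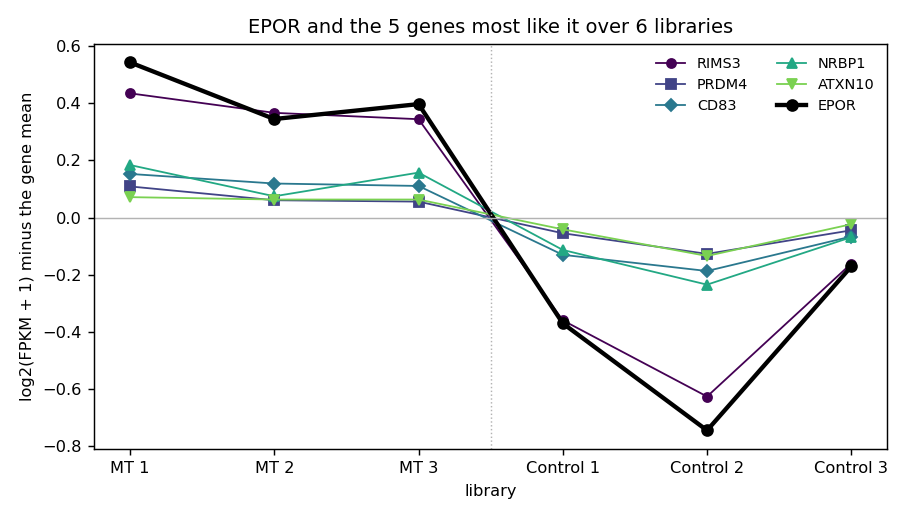
Log2(FPKM + 1) minus the gene's mean over the 6 libraries, for EPOR (black, thick line) and the 5 genes most like it, with MT libraries left of Control libraries. All 6 genes are above their mean in the MT libraries and lowest in Control 2, with EPOR and RIMS3 spread over a wider range than the other 4.

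The tested genes beside EPOR on chromosome 2 had groups that overlapped. The annotation leaves 1611 bases between EPOR and SWSAP1 on one side and 4239 bases to RGL3 on the other, so no annotated gene overlaps it. Of 10 genes within 50 kb, a window chosen after the values were seen, 4 were tested, and their log2 differences lay between -0.18 and 0.08. SWSAP1, which takes part in recombination repair, stood at 5.30 ± 0.602 FPKM in MT and 5.45 ± 1.19 in Control, RAB3D at 56.5 ± 3.22 in MT and 65.7 ± 18.1 in Control, TMEM205 at 40.4 ± 3.27 in MT and 40.8 ± 6.83 in Control, and PRKCSH at 142.5 ± 6.73 in MT and 136.1 ± 24.8 in Control (SD, n = 3 each). Of these 4 genes 0 passed in limma.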

How the data were processed

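RNA of 3 MT and 3 Control samples was analysed, with groups and replicate numbers from the sample titles. The authors deposited FPKM per gene and library. Per the submitters' processing notes, the build was Sscrofa11.1 and the tools included HISAT2, featureCounts, Subread and bcl2fastq. Tool versions, gene annotation, strand setting and any further scaling: not given in the sources used here. Because FPKM values share a library total, a shift in abundant transcripts moves every other gene.

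Symbols were matched by Ensembl identifier for 13173 of 20731 genes (63.5%), and positions by symbol in RefSeq's annotation of Sscrofa11.1. Read numbers were recovered from the steps of low values, and all 10950 tested genes (100.0%) came out whole within 0.01. Where all 6 read numbers of a gene share a divisor, the true numbers and length are a multiple of those given. Chi-square per degree of freedom between replicates of a group was 6.42 to 152, so none was a copy.

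Genes averaging 1 FPKM or more were compared on log2(FPKM + 1), which understates changes of low genes, with limma 3.58.1 in R 4.3.3 (variance trend, two-sided, Benjamini-Hochberg over 10950 genes, threshold 0.05). Tables and plots were made in Python 3.11.15 (pandas 2.3.3, matplotlib 3.10.9). The members and lists were chosen with earlier results of these data known. Named pathway genes are up to 4 of the highest mean level in each role list and those that passed without Control 3, and IL4R counts in 2 role lists. The rule also named EPO, MTNR1A, MTNR1B and the 5 genes most like EPOR. Of the genes so named, 2 are not reported here. CSF2RB, EPHB4, JAK3, MYC, CCND1 and the neighbours of EPOR were named after their values were seen. No genome, promoter or protein sequence was used here, so a planned search for STAT motifs was not made. The pseudocount, filter, scaling and variance model were varied, a replicate block was added and each library was left out in turn, and limma voom on recovered reads was added after seeing the data.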

Additional observations from a re-analysis of the deposited data

How the results depend on the processing

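The log2 difference of EPOR was 0.84 to 0.93 under the other pseudocounts, filters, scalings and fits and 0.70 to 0.99 with 1 library left out, and the median of the pathway lists was -0.01 to 0.02 and -0.02 to 0.03. Leaving out 1 library passed 0 to 1194 genes of the table and 0 to 6 genes of the pathway lists, and only the fit without Control 3 passed any. The values of the other 7 members moved by less than their spread between libraries in all 15 alternatives, a spread that includes Control 3. Without Control 3 the log2 difference of JAK2 went from -0.02 to -0.27. Those of SOCS3, CISH and PIM1 changed sign, from -0.14, -0.14 and -0.07 to 0.02, 0.01 and 0.09. Of the 5 genes most like EPOR, 1 remained among the closest 5 under quantile normalisation, 3 under median ratio scaling and 0 to 3 with 1 library left out, so these names depend on the libraries and the scaling. The cause was not tested. With the replicate block 0 genes passed. The log2 difference of EPOR stayed at 0.86, since in this balanced design the block cannot change a difference of group means. The filter and the variance trend cannot change it either, so for the members these settings are no check. Deviations of same-numbered libraries from their group means correlated at -0.441, 0.632 and 0.338 across genes. Control 3 dominated the Control deviations, so these correlations cannot decide whether the numbers pair the samples. The motif search and its alternative spacing were not run. At this depth EPO rests on 0 to 8 reads, and counting error alone is large there.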
